A study of Mus musculus with 20 samples.

Results

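Aminoacyl-tRNA synthetases load each tRNA with its amino acid, the step that turns the genetic code into protein sequence. The 36 synthetase genes described here were taken by gene symbol from a fixed list, as the rows of the count table that carried a listed symbol or the same symbol followed by 1. All 36 were found among 15956 listed genes and all 36 passed the filter on low counts. Of these, 20 encode the enzymes of the cytosol and 16 encode the enzymes of the mitochondria, whose symbols end in 2. RNA was sequenced from left ventricular tissue of 20 male mice, 5 in each of 4 diet groups. The normal protein (NP) diet held 20% casein with normal fat, the low protein (LP) diet 5% casein with normal fat, the high-fat (HF) diet 20% casein with high fat, and the HF + LP diet 5% casein with high fat. Diets began at 12 months of age and lasted 4 months, so that tissue was collected at 16 months by the study's methods, whereas the sample labels give 18 months for every mouse. All groups were aging mice, and no young group was analysed here.

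Cells keep separate sets of synthetases, because proteins encoded in mitochondrial DNA are made inside the mitochondria with their own tRNAs. Several cytosolic enzymes sit together in the multisynthetase complex, and a few genes, here Gars (glycine) and Kars (lysine), supply both compartments. When an amino acid runs short, uncharged tRNA activates the kinase GCN2, which raises translation of the transcription factor ATF4, and ATF4 induces genes for amino acid supply, many cytosolic synthetases among them. Protein restriction bears on this pathway, and the diets thus compare the synthetase mRNAs with low and normal protein at each fat content.

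ATF4 binds composite elements written as TGATGNAA, and promoters that hold these letters are shown because the account of the ATF4 targets refers back to them. RefSeq promoters (GRCm38.p6), running from 250 bases before to 50 bases after each gene's start, were matched for 13 cytosolic and 14 mitochondrial synthetases. Searched on both strands, the motif was held by 5 of the 13 cytosolic genes (38.5%) and by 0 of the 14 mitochondrial ones, against 4.51% of 27025 genes and 3.97% of 32851 promoters in the table. A match is a description of the letters and no evidence of binding. Cars, Hars, Lars, Nars, Rars, Vars, Wars, Hars2 and Pars2 were not matched. Each 30-base fragment below is written 5′ to 3′ on the strand of its gene, with the motif or its reverse complement in capitals.
Aars, base 10 after the start, chr8:111033840-111033869, plus strand: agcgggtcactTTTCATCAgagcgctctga
Gars, 30 bases before the start, chr6:55037960-55037989, plus strand: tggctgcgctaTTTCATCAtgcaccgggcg
Iars, base 8 after the start, chr13:49682126-49682155, plus strand: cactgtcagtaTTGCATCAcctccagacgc
Tars, 15 bases before the start, chr15:11399655-11399684, minus strand: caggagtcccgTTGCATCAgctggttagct
Yars, base 4 after the start, chr4:129189895-129189924, plus strand: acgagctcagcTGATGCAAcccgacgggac
The 5 genes load alanine, glycine, isoleucine, threonine and tyrosine.

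Libraries were made with the QuantSeq method, which sequences from the poly(A) end of an mRNA, and counts therefore do not scale with transcript length. Total counts per mouse lay between 12559607 and 23331907. Of the summed counts, genes encoded in mitochondrial DNA took 43.2% in NP hearts and 40.3% in LP hearts, and took 38.7% in HF hearts and 43.3% in HF + LP hearts. Markers of ventricular muscle were abundant in every library, with 8 cardiomyocyte markers summing to between 30000 and 47200 CPM, counts scaled to a common total. The sums ran from 39800 to 47200 CPM in NP and from 30000 to 43600 in LP mice. They ran from 32200 to 39200 in HF and from 31800 to 45700 in HF + LP mice, so every HF mouse lay below every NP mouse. Whether this bears on the synthetase values was not tested. The 4 atrial markers ranged from 57.2 to 14500 CPM between mice, with a wide range in each diet, and whether this touches the synthetases was not tested. In bulk tissue, fewer cells of a type and less RNA per cell cannot be told apart.

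The levels differed far more between synthetases than between diets. Values are given as normalized read counts, meaning counts scaled to a common library size. Among cytosolic enzymes Eprs, the fused glutamyl- and prolyl-tRNA synthetase, had the highest mean over the 20 mice at 1577, and Cars (cysteine) the lowest at 119. Among mitochondrial enzymes Iars2 (isoleucine) was highest at 1004 and Pars2 (proline) lowest at 34.0. Pars2 was the only member with a mean count under 50.

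**Figure D1:**
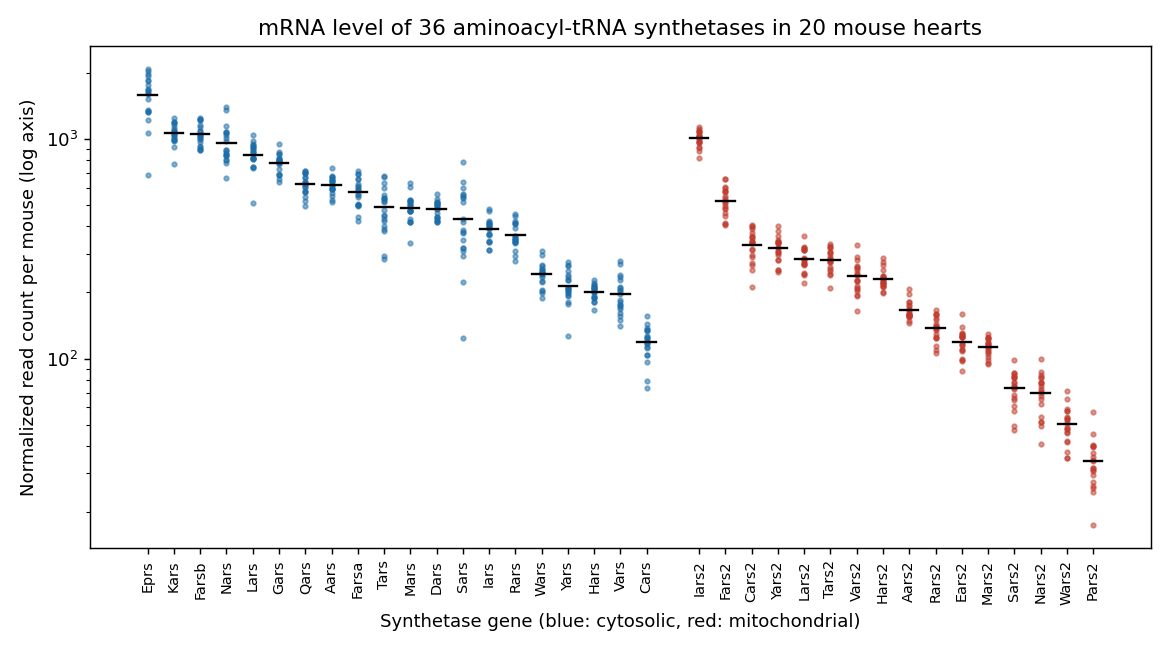
Normalized read count of each synthetase (log axis) in each of the 20 mice as points, with the mean as a black line, cytosolic genes in blue and mitochondrial genes in red. Means ran from 1577 for Eprs to 119 for Cars in the cytosolic set, and from 1004 for Iars2 to 34.0 for Pars2 in the mitochondrial set.

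Over all members of a compartment, the 20 cytosolic mRNAs summed to 687 ± 37.3 CPM in NP hearts and 657 ± 60.6 in LP hearts, and to 710.1 ± 74.2 in HF hearts and 703 ± 30.0 in HF + LP hearts (mean ± SD, n = 5). The 16 mitochondrial mRNAs summed to 243 ± 14.2, 227 ± 19.2, 227 ± 11.2 and 239 ± 22.9 CPM in the same order. The cytosolic sum was thus close to 3 times the mitochondrial sum, with ratios of 2.8 ± 0.14 for NP and 2.9 ± 0.21 for LP, and of 3.1 ± 0.24 for HF and 3.0 ± 0.24 for HF + LP. All 4 groups overlapped in each of these quantities.
For 13 amino acids a cytosolic and a mitochondrial gene share a name, and ratios were taken for these pairs alone. Within them, the cytosolic mRNA exceeded its mitochondrial partner most for asparagine, where Nars was 14.8 times Nars2 on average over the 20 mice. In 5 pairs the mitochondrial mRNA was the more abundant on average, those for histidine, valine, tyrosine, isoleucine and cysteine, with Cars at 0.363 of Cars2. Hars and Hars2 overlap on opposite strands at their starts. Cars2 with Naxd and Iars2 with Rab3gap2 overlap on opposite strands at their poly(A) ends, from which the reads come. The same holds for Mars with Ddit3, Yars with C77080 and Fars2 with Nrn1. How reads in such overlaps were assigned is not given in the sources used here.

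Diet moved the synthetase mRNAs little. None of the 36 was called in any of 7 comparisons by edgeR's quasi-likelihood test, where a call needed a mean count over 50 and a p under 0.01 after Benjamini-Hochberg adjustment. The share of all 13991 tested genes called by this rule was 0.264% for HF against NP and 0% for HF + LP against HF. It was 0% for LP against NP, 0.100% for HF + LP against LP, 1.00% for the mean effect of fat, 0% for the mean effect of protein and 0% for their interaction. The 95% interval of the difference lay within a 2-fold change for 35 of 36 members for HF against NP, and for 36 of 36 members for HF + LP against HF. The exception was Sars (serine), whose log2 difference between HF and NP was 0.30 with an interval from -0.40 to 1.00. A failed call does not show that a level was the same, since the median half-width of these intervals was 0.265 on the log2 scale.

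**Figure D2:**
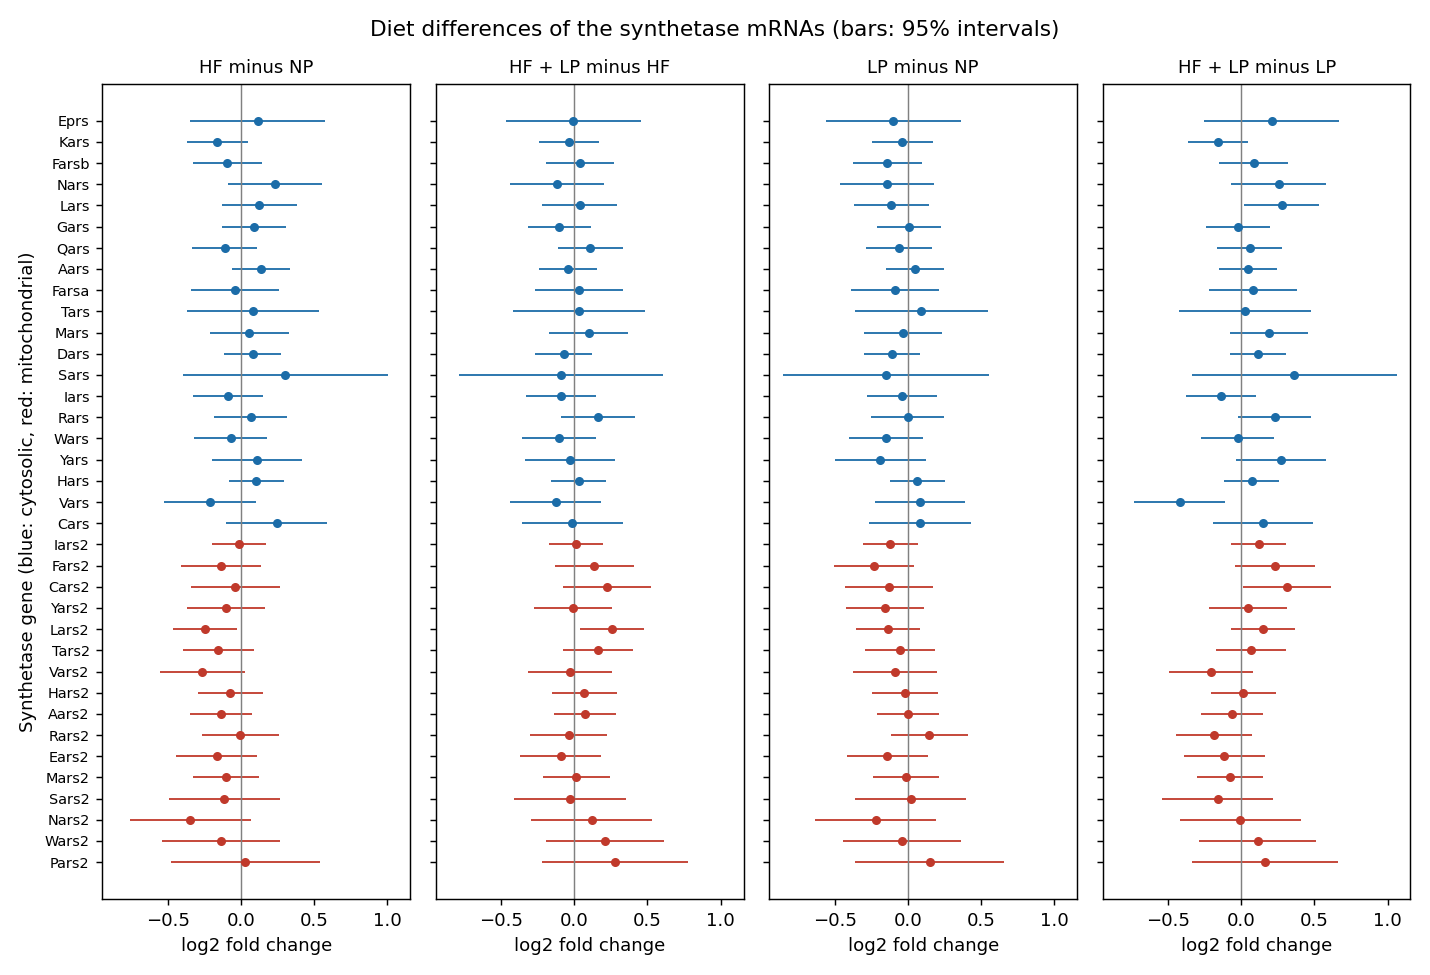
Log2 fold change with its 95% interval (x axis) for each of the 36 synthetases (y axis) in the 4 comparisons of 2 diet groups, cytosolic in blue and mitochondrial in red. In HF minus NP, 15 of 16 mitochondrial points lie below 0, and in HF + LP minus HF 11 of 16 lie above it.

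In HF against NP hearts, the compartments leaned in opposite directions. Of the 16 mitochondrial synthetases, 15 had a log2 fold change below 0, with a median of -0.12, whereas 13 of the 20 cytosolic ones lay above 0, with a median of 0.08. The median over all tested genes was -0.00. The cytosolic median was 0.03 without HF mouse 2, and the mitochondrial median was -0.08 without NP mouse 6. Only 1 member had an unadjusted p under 0.05, against 13.1% of all tested genes.
That member was Lars2, the mitochondrial leucyl-tRNA synthetase. Because Lars2 counts carry much of what follows, its annotated transcripts were compared with the 2 mitochondrial rRNAs, a check chosen after its values were seen. The longest identical run over 9 Lars2 transcripts and both strands was 14 bases, against reads of 75 bases. Sequence of the locus outside the annotated transcripts was not compared. Counts of mt-Rnr2, the large mitochondrial rRNA, ranged 13.1-fold over the 20 mice and those of Lars2 1.62-fold, on the CPM scale. Their deviations from the diet means had a Pearson's r of -0.47 (permutation p = 0.035) and a Spearman's rho of -0.57 (permutation p = 0.00998). Without the 2 mice farthest out, r was -0.47. Both were scaled to raw library totals that include mitochondrial transcripts, so more of these lowers Lars2 CPM and favours a negative r. These permutations shuffled mice over all diets, not within them. What the correlation means for the assignment of reads was not tested.
In NP mice the Lars2 counts were 311, 283, 284.5, 312 and 320.1, and in HF mice 272, 221, 244, 270.1 and 269. Every HF mouse thus lay below every NP mouse on these counts. Of all tested genes, 5.67% had groups that do not overlap, in either direction. Scaled to raw library totals instead, Lars2 ran from 15.2 to 18.1 CPM in NP and from 13.4 to 17.5 CPM in HF mice, with overlap. The log2 fold change was -0.24 (SE 0.10), with an unadjusted p of 0.0312 and an adjusted p of 0.314 from edgeR. Leaving out 1 mouse at a time, the unadjusted p for Lars2 missed 0.05 in 6 of 20 edgeR fits. These left out NP mouse 3, NP mouse 6, NP mouse 8, HF mouse 2, HF mouse 3 or HF + LP mouse 3, and p was highest, at 0.0851, without HF mouse 2.
Vars2 (valine) stood at -0.26 (SE 0.14), with an adjusted p of 0.447 in edgeR, and the diet groups overlapped.

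In HF + LP against HF hearts, the mitochondrial median was 0.07, with 11 of 16 members above 0, and the cytosolic median was -0.02, with 8 of 20 above 0. The median of all tested genes was 0.02. The cytosolic median changed sign, to 0.04, without HF mouse 2. Lars2 was again the only member at an unadjusted p under 0.05, against 4.84% of all genes.
Its counts in HF + LP mice were 282, 322, 278, 362 and 287, all above the highest HF value of 272. On such counts, groups that do not overlap, in either direction, were found for 1.18% of all genes in this comparison. Scaled to raw library totals instead, Lars2 ran from 14.5 to 21.6 CPM in HF + LP and from 13.4 to 17.5 CPM in HF mice, with overlap. The log2 fold change was 0.26 (SE 0.10), with an unadjusted p of 0.0221 and an adjusted p of 0.811 from edgeR. Without HF mouse 2 the unadjusted p for Lars2 was 0.0633, and without HF + LP mouse 4 it was 0.0815, both in edgeR.
HF + LP and NP hearts had nearly the same mean Lars2 count, 306 ± 35.7 and 302 ± 17.3 (SD, n = 5), while LP hearts overlapped all groups at 276 ± 36.5. In the interaction of fat and protein the Lars2 difference was 0.39 (SE 0.15), with an unadjusted p of 0.0152 and an adjusted p of 0.673 in edgeR, and 7.17% of all genes had an unadjusted p under 0.05. The comparisons of HF with NP and of HF + LP with HF share the HF mice, so that their opposite signs are not independent. The share of counts from mitochondrial DNA was also lowest in HF. With those genes left out of the library size the Lars2 difference between HF and NP was -0.22 (unadjusted p = 0.0412 in edgeR), and that between HF + LP and HF was 0.24 (unadjusted p = 0.0274 in edgeR).

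**Figure D3:**
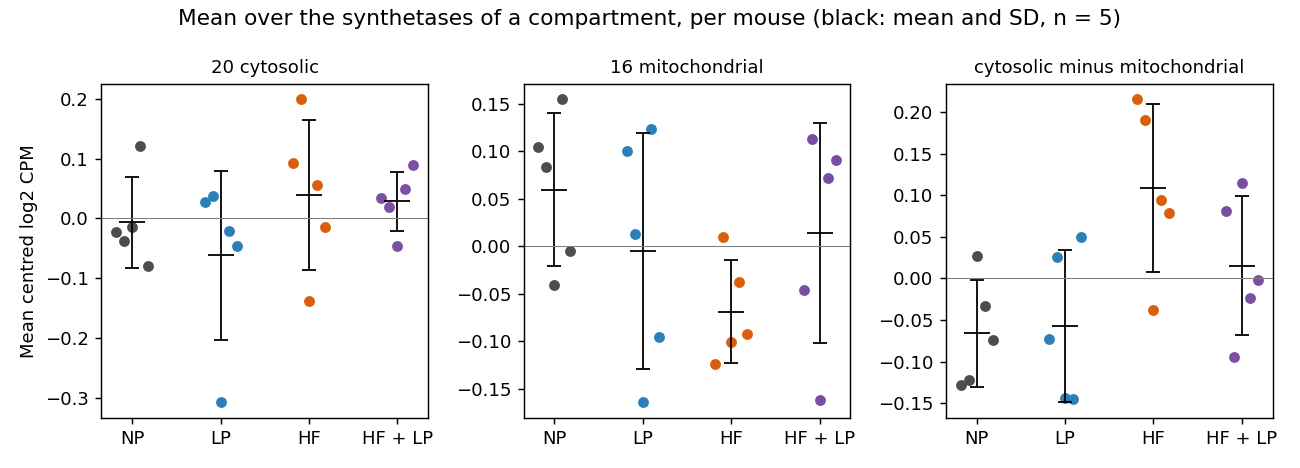
Mean of the centred log2 CPM (y axis) over the cytosolic synthetases, over the mitochondrial synthetases, and their difference, per mouse and diet (x axis), with the group mean and SD in black (n = 5). The HF mice have the highest mean of the class difference, 0.11, but overlap the other 3 groups.

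Low protein alone, LP against NP, gave 0 synthetases with an unadjusted p under 0.05 in edgeR, against 7.23% of all genes. The medians were -0.05 for cytosolic and -0.07 for mitochondrial synthetases, against 0.02 for all genes. They were -0.0080 for cytosolic synthetases without LP mouse 13 and -0.04 for mitochondrial ones without NP mouse 6. All 8 members of the multisynthetase complex lay below 0, with a median of -0.05, and the largest difference in size over all members was that of Fars2 (phenylalanine), -0.23, with an adjusted p of 0.767.

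In HF + LP against LP hearts, 3 members had an unadjusted p under 0.05, against 15.9% of all genes. Vars, the cytosolic valyl-tRNA synthetase, had counts of 205, 197, 239, 209 and 269.8 in LP and of 175, 160.3, 171, 157 and 174 in HF + LP. All HF + LP mice lay below all LP mice. Of all tested genes, 1.87% had groups that do not overlap, in either direction. The log2 fold change was -0.42 (SE 0.15), with an adjusted p of 0.180 in edgeR.
Lars, the cytosolic leucyl-tRNA synthetase, had counts of 822, 918, 511, 807 and 734 in LP and of 931, 942, 818, 1043 and 859 in HF + LP, and the groups overlapped. Its log2 fold change was 0.28 (SE 0.12, adjusted p = 0.277 in edgeR). Cars2, the mitochondrial cysteinyl-tRNA synthetase, had counts of 338, 358, 211, 344 and 253 in LP and of 354, 387, 317, 399.8 and 404 in HF + LP. Its log2 fold change was 0.31 (SE 0.14, adjusted p = 0.300 in edgeR).
For Lars and Cars2 the lowest LP value came from the same mouse, LP mouse 13. Without it, the differences were 0.16 for Lars and 0.20 for Cars2, with unadjusted p-values of 0.131 and 0.158 in edgeR.

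Averaged over both protein contents, fat gave 5 synthetases with an unadjusted p under 0.05, against 20.8% of all genes. Vars was lower on fat by a log2 difference of -0.32 (SE 0.11, adjusted p = 0.0894 in edgeR). Its counts were 180.5, 212, 203, 234 and 228.5 in NP mice and 184, 278, 141, 149.6 and 167 in HF mice. HF mouse 2, at 278, stood above every NP mouse, HF mouse 1, at 184, lay within the NP range, and the other HF mice lay below it. Without that mouse the difference was -0.41 and Vars was called, with an adjusted p of 0.00749 in edgeR, so that this call depends on a single library.
Vars2 was lower by -0.23 (SE 0.10, adjusted p = 0.174) and Kars by -0.16 (SE 0.07, adjusted p = 0.197), both in edgeR. Kars averaged 1134 ± 65.4 and 1105 ± 128 in NP and LP hearts, and 1014 ± 45.1 and 989.6 ± 129 in HF and HF + LP hearts (SD, n = 5). Lars and Nars, the enzyme for asparagine, were higher by 0.20 (SE 0.09, adjusted p = 0.188) and 0.24 (SE 0.11, adjusted p = 0.208) in edgeR.
The mean effect of protein content gave 0 members with an unadjusted p under 0.05 in edgeR, against 5.47% of all genes.

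**Figure D4:**
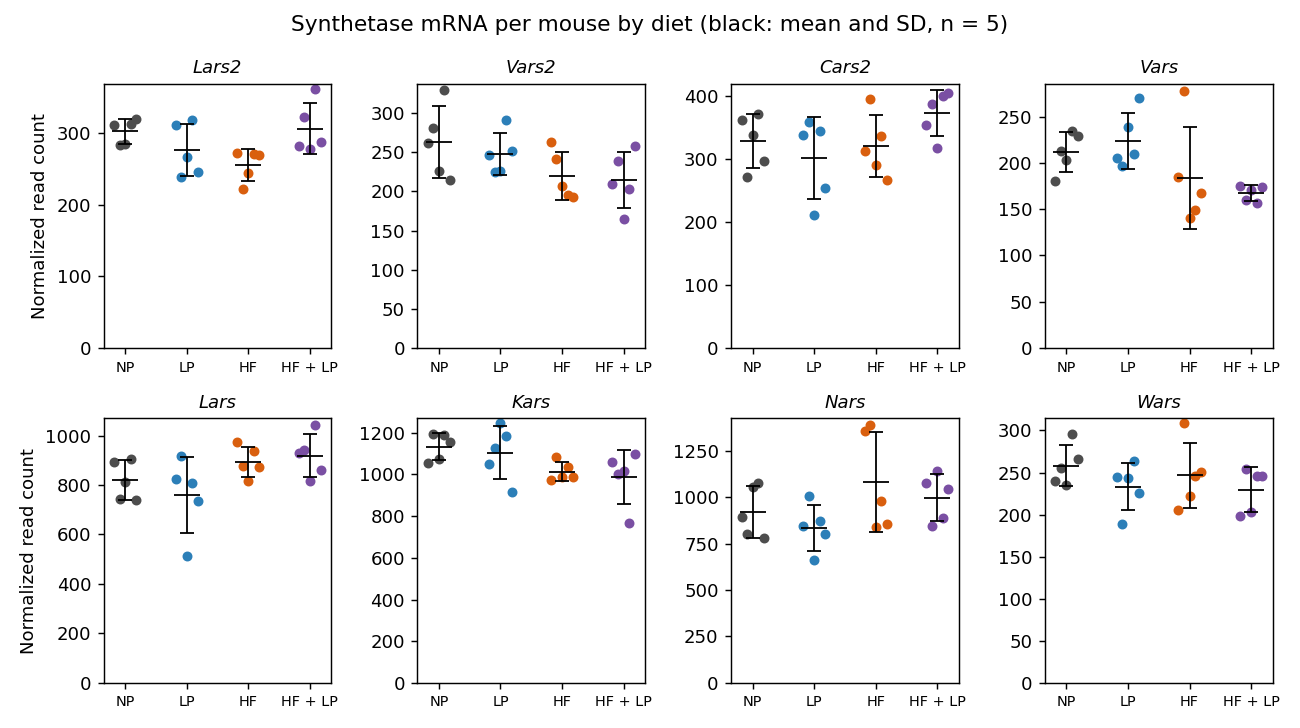
Normalized read count per mouse (y axis, from 0) by diet (x axis) for the 7 synthetases with an unadjusted p under 0.05 in any comparison and for Wars, with mean and SD in black (n = 5). On these normalized counts Lars2 in HF lies below NP and HF + LP without overlap, but the groups overlap when scaled to raw library totals. For Vars, 1 HF mouse stands apart.

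The other parts of the tRNA and amino acid pathway were compared from lists of genes. Mitochondrial tRNA amidation and formylation, which completes charging in the organelle, has 4 measured genes, and all 4 had a log2 fold change below 0 in HF against NP and above 0 in HF + LP against HF. Gatc, a subunit of the amidotransferase, was -0.34 (SE 0.10, adjusted p = 0.119) and 0.22 (SE 0.10, adjusted p = 0.9995), and Mtfmt, which formylates the initiator tRNA, was -0.35 (SE 0.13, adjusted p = 0.240) and 0.25 (SE 0.13, adjusted p = 0.9995), all in edgeR. The 3 scaffold genes of the multisynthetase complex had log2 fold changes between 0.04 and 0.12 in HF against NP. In HF + LP against HF, Aimp1 was at 0.04 and Aimp2 at 0.02, and Eef1e1 was at -0.32 (SE 0.26, adjusted p = 0.9995 in edgeR).
Of 5 tested genes for tRNA editing and selenocysteine charging, 1 had an unadjusted p under 0.05 in LP against NP, against 7.23% of all genes. This was Pstk, a kinase that acts on the tRNA for selenocysteine, at -0.27 (SE 0.09, adjusted p = 0.533 in edgeR). In HF + LP against LP, Prorsd1 alone of the 5 had such a p, at 0.49 (SE 0.19, adjusted p = 0.212 in edgeR), against 15.9%. Of 5 genes for tRNA export and delivery, Eef1a2, the elongation factor of striated muscle and neurons that brings charged tRNA to the ribosome, was at -0.27 in LP against NP (SE 0.12, unadjusted p = 0.0373, adjusted p = 0.664 in edgeR). The lists for editing and for delivery had 0 genes at an unadjusted p under 0.05 in HF against NP and in HF + LP against HF in edgeR.
Of 7 genes that sense uncharged tRNA, 1 had an unadjusted p under 0.05 in HF against NP, against 13.1% of all genes, and 0 did in HF + LP against HF, LP against NP or HF + LP against LP in edgeR. This was Impact, an inhibitor of GCN2 activation, at 0.39 (SE 0.16, adjusted p = 0.268 in edgeR).
Of 27 tested ATF4 targets that are not synthetases, 8 were higher in HF than NP at an unadjusted p under 0.05 in edgeR. Of all 13991 tested genes, 5.17% were higher at such a p. Of the 27 targets, 1 was called. This was Mthfd2, a mitochondrial folate enzyme, with a log2 fold change of 1.49 (SE 0.20, adjusted p = 0.000527 in edgeR). In HF + LP against HF the median of the 27 was -0.32, against 0.02 for all genes, with 23 below 0. Of those 23, 4 had an unadjusted p under 0.05 in edgeR, while 2.43% of all 13991 tested genes were lower at such a p. Among the 4, Sesn2 had the smallest p, at -0.89 (SE 0.30, adjusted p = 0.578 in edgeR). In LP against NP the median of the 27 was 0.10, with 1 higher and 0 lower at an unadjusted p under 0.05 in edgeR, against 7.23% of all genes in either direction. In HF + LP against LP the median was -0.04, with 3 higher and 2 lower, against 15.9%. Whether these targets differed from the synthetases was not tested.
The 11 synthetases that are often described as ATF4-dependent had a median of 0.11 in HF against NP (9 above 0) and of -0.05 in HF + LP against HF (9 of 11 below 0), with 0 members at an unadjusted p under 0.05 in edgeR in both, against 13.1% and 4.84% of all genes in either direction. The 5 whose promoters hold the capitals shown above had medians of 0.09 and -0.05 in these comparisons, and of 0.0069 in LP against NP. The 8 cytosolic synthetases whose matched promoters lack the motif had medians of 0.01, 0.01 and -0.09 in the same order, and the difference between these sets was not tested. Atf4 mRNA itself was at 0.30 (SE 0.15, adjusted p = 0.424) and -0.15 (SE 0.15, adjusted p = 0.9995) in the same comparisons.
Wars, the tryptophan enzyme known to be induced by interferon, can be set beside 19 interferon-induced genes. At an unadjusted p under 0.05 in edgeR, 15 of the 19 were higher in HF than NP and 17 lower in HF + LP than HF. Counted the same way over all 13991 tested genes, the shares were 5.17% and 2.43%. The medians of the 19 were 1.2 and -1.2 on the log2 scale. Wars stood at -0.07 (SE 0.12) and -0.10 (SE 0.12), with adjusted p-values of 0.884 and 0.9995 in edgeR. The 8 macrophage markers were all detected in every library and summed to 185 to 276 CPM in NP and 139 to 396 in LP mice, and to 249 to 360 in HF and 194 to 264 in HF + LP mice. Their part in the interferon-induced genes was not tested.

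Some synthetase mRNAs differed widely between mice of the same diet. The main axis of the spread within diets was computed over 10124 genes without the synthetases and held 37.0% of the variance. It scored LP mouse 13 at -50.5 and LP mouse 5 at 36.4, the extremes, and its mean was 0 in each diet by construction. The direction of such an axis is arbitrary, and it was set so that Sars correlated positively. The members named next were chosen after their values were seen. Sars ranged from 125 in LP mouse 13 to 561 in LP mouse 5, and from 307 in HF mouse 3 to 783 in HF mouse 2. Its deviation from the diet mean followed the axis with a Pearson's r of 0.88 and a Spearman's rho of 0.82 over 20 mice. The permutation p was 3e-05, or 0.00027 adjusted over the 36 synthetases, and r was 0.79 without the 2 mice farthest out.
Eprs had r = 0.91 and rho = 0.85 (permutation p = 3e-05, adjusted 0.00027), and 0.84 without the same 2 mice. Tars (threonine) ran the other way, with r = -0.81 and rho = -0.86 (permutation p = 7e-05, adjusted 0.00042), and -0.83 without those mice. Aars (alanine) did not follow the axis, at r = 0.14 and rho = 0.18 (permutation p = 0.519). In all, 10 of the 36 exceeded 0.7 in size, 9 of them cytosolic and 1, Cars2, mitochondrial, as did 22.3% of the genes from which the axis was computed. Without the 2 mice farthest out, 7 of these 10 still exceeded 0.7, and 1 more of the 36, Iars, came to exceed it. These are members out of 36, to be set beside 18% of those genes in the same mice. Lars fell to 0.44, Cars to 0.58 and Rars to 0.62, and Iars, at -0.46 with all mice, came to -0.70.
As a description over the 20 mice, cardiomyocyte markers had r = 0.82 with the axis and endothelial markers r = 0.69, whereas fibroblast markers had r = -0.88, macrophage markers -0.60, adipocyte markers -0.59 and atrial markers -0.56. Lymphocyte markers had r = 0.35 and erythroid markers r = 0.055. Only the synthetases were left out of the axis, so markers with a mean count over 50 helped to define it. Their correlations with it are therefore partly built in. The part of these cell types in the synthetase values was not tested. Pairs of cytosolic synthetases had a median r of 0.16 over the mice, from -0.78 to 0.97, the highest being Eprs with Sars. The 5 genes outside the family that were most like the mean of the cytosolic enzymes over the 20 mice were Qsox1, Sgta, Hsp90ab1, Hbegf and Rabl6, with r from 0.89 to 0.92.

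**Figure D5:**
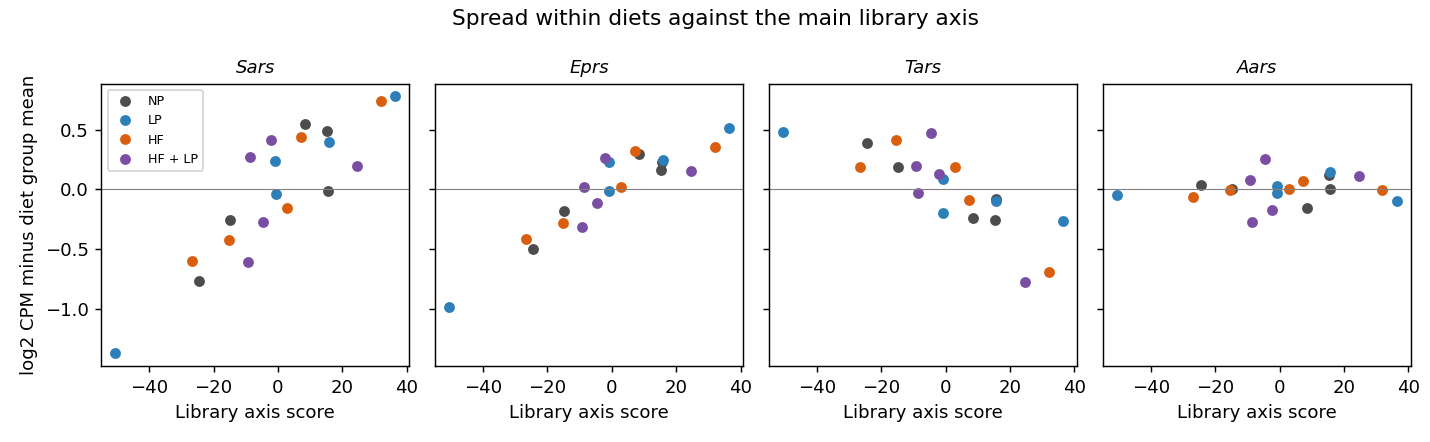
Log2 CPM minus the diet mean (y axis) of 4 cytosolic synthetases against the score of the main within-diet axis (x axis), 1 point a mouse, coloured by diet. Sars and Eprs rise along the axis with r of 0.88 and 0.91, Tars falls with r of -0.81, and Aars shows r of 0.14.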

How the data were processed

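The authors prepared QuantSeq 3′ libraries and aligned the reads with BlueBee. They deposited unnormalized counts for each Ensembl gene in each library. Per the labels' processing notes the build was GRCm38 and DESeq2 1.22.2 was used. The annotation and counting program are not given in the sources used here. Symbols and coordinates came from GENCODE M21.

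The model was fitted with edgeR 4.0.16 under R 4.3.3 (TMM, filterByExpr by diet, quasi-likelihood fit on all 20 libraries, Benjamini-Hochberg adjustment over 13991 tested genes), and the scripts were tested on simulated data. Standard errors came from the F statistic. Log2 CPM used a prior count of 2. Correlations used 100000 permutations. Alternatives included DESeq2 1.42.0, other filters, other covariates and leaving out each mouse. Values were named for members with an unadjusted p under 0.05, for the highest and lowest levels, and for up to 3 genes of smallest p in the pathway lists. Members, lists and tests were chosen with earlier results of these data known.

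Mice are separate animals by their labels. The title of LP mouse 5 alone adds that the library is a sample 2, and no other library of that LP mouse was analysed here. Over all 190 pairs of libraries the lowest chi-square per degree of freedom was 13.1, so that no 2 libraries matched within sampling noise. Animal numbers recur across diets but same-numbered mice are different animals. Deviations of 16 same-numbered pairs correlated at -0.0234 on average (from -0.553 to 0.476). Pairs with different numbers were not set beside them, so these values cannot settle whether the numbers mark anything shared. HF and HF + LP mice of the same number also share the leading number of the library name. A further promoter fragment, beside those printed, is not reported here.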

Additional observations from a re-analysis of the deposited data

Results flagged for a closer look

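In 4 of 144 groups of 5 mice (2.78%), 1 synthetase value stood far from the others of its diet, where chance gives about 1 in 20. Dars was 493 in LP mouse 5, against 422 to 442 in the other LP mice. Mars was 337 in LP mouse 13, against 470 to 523. Sars2 was 84.3 in NP mouse 6, against 72.4 to 75.2, and Wars2 was 71.5 in NP mouse 3, against 42.2 to 48.9. The effect of high fat on Lars2 differed between protein contents by 0.39 on the log2 scale (unadjusted p = 0.0152, adjusted p = 0.673 in edgeR), which fails the correction.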

How the results depend on the processing

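In the settings tried, the 7 synthetases with an unadjusted p under 0.05 kept their sign in the comparisons where they reached it, and other named differences were not followed over the settings. Medians of a compartment moved by less than 1 SD between mice, but those near 0 changed sign in some settings: the cytosolic median for HF + LP against HF (up to 0.04 without HF mouse 2), for LP against NP (0.01 with the replicate block) and for the interaction (down to -0.0029), and the mitochondrial median for HF + LP against LP (-0.0060) and for protein (-0.0025). A synthetase was called in 1 setting only, Vars for the mean effect of fat without HF mouse 2 (0 to 1 called over the mice left out). At an adjusted p under 0.05 in place of 0.01, all genes called numbered 157 for HF against NP, 45 for HF + LP against LP and 502 for fat. DESeq2 called 163 for HF against NP, 16 for HF + LP against HF, 4 for LP against NP, 84 for HF + LP against LP, 398 for fat, 1 for protein and 1 for the interaction. With a covariate for the library name's leading number, HF + LP against LP had 5 genes called and 1 synthetase at an unadjusted p under 0.05 (13% of all tested genes in that fit), and fat had 3 such synthetases (18.3%). With only the 2 groups compared, HF against NP had 61 genes called and 2 such synthetases (17.9%), and HF + LP against LP had 0 and 1 (10.4%).
Same-numbered mice are different animals, and numbers 6, 8, 13, 15 and 20 each belong to a single mouse. With the animal number as a replicate block, those libraries are taken up by their own block. The NP values then rest on mice 3, 4 and 5, and the LP values on mice 2 and 5. Genes called were 2 for HF against NP, 0 for HF + LP against LP and 13 for fat. Synthetases at an unadjusted p under 0.05 were then 0 for HF against NP, 0 for HF + LP against HF, 0 for HF + LP against LP, 0 for fat, 0 for the interaction and 1 for protein, beside shares of all genes of 12%, 5.47%, 5.17%, 12%, 4.2% and 7.53% in the same order. Vars was then at -0.13, Lars at 0.05 and Cars2 at 0.17 for HF + LP against LP, and Vars at -0.19, Lars at 0.08 and Nars at 0.14 for fat.
The within-diet axis as a covariate was chosen after seeing the data, and because it is built from the residuals of these libraries it lowers the residual spread by construction. Genes called were then 108 for HF against NP, 97 for HF + LP against LP and 432 for fat. Synthetases at an unadjusted p under 0.05 were 2 for HF against NP, 2 for HF + LP against HF, 2 for LP against NP, 9 for HF + LP against LP, 12 for fat and 3 for the interaction, with 0 called, beside shares of all genes of 17%, 7.22%, 10.5%, 22.2%, 27.2% and 10.8% in the same order.
Leaving out each mouse in turn, genes called ranged from 20 (without NP mouse 6) to 69 (without LP mouse 13) for HF against NP, 0 to 1 for HF + LP against HF, 1 to 16 for HF + LP against LP and 79 to 198 for fat. Synthetases at an unadjusted p under 0.05 ranged from 0 to 2 for HF against NP, 0 to 1 for HF + LP against HF, 1 (without LP mouse 13) to 7 (without HF + LP mouse 3) for HF + LP against LP, 2 to 7 for fat and 1 to 3 for the interaction. The shares of all genes ranged from 10.9% to 15.1%, 3.72% to 5.83%, 12.3% to 21.3%, 18.4% to 23.5% and 5.2% to 10.2% in the same order. The causes of these shifts were not tested.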
